A study of Mus musculus with 6 samples.

Results

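The genes described here are the intracellular signal carriers of the bone morphogenetic protein (BMP) and transforming growth factor β (TGF-β) pathways, *Smad1* to *Smad7*, and 3 of their best known target genes, *Id1*, *Id2* and *Id3*. They were chosen by name, with earlier results of these data known, 10 genes in all, and found in the expression table by their Ensembl identifiers. Of these 10 genes, 9 were among the 12101 genes with values, all 9 passed the filter of 1 CPM in 3 libraries, and *Id3* was absent from the table, so its expression was not analysed here. *Id1* and *Smad6* reached 1 CPM in the dox-treated libraries alone, so they passed the filter only through the group where they are high. RNA-seq libraries came from megakaryocyte–erythroid progenitors (MEPs), the bone marrow cells that give rise to red blood cells and to the platelet-forming megakaryocytes. They were sorted from adult CD-1 mice of the *R26-M2rtTA;Col1a1-tetO-Nanog* line, in which doxycycline (dox) switches on a *Nanog* transgene. The dox-treated group has 3 replicates from mice that drank dox for 5 days, and the untreated group has 3 replicates from mice of the same genotype, so both groups carry both transgenes. The activator M2rtTA is expressed from the widely active *Rosa26* locus, dox reaches the whole animal, and these data hold no dox-treated mice without the *Nanog* cassette, so effects of dox itself, of *Nanog* in the MEPs and of *Nanog* in other tissues cannot be told apart. The sources used here do not say whether each replicate came from a separate mouse, and the p-values measure only the spread between these libraries.

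Ligands of the TGF-β family bind pairs of type I and type II receptor kinases on the cell surface. BMP receptors mostly phosphorylate SMAD1 and SMAD5, and the TGF-β and activin receptors phosphorylate SMAD2 and SMAD3. These receptor SMADs join SMAD4, enter the nucleus and bind DNA, while SMAD6 and SMAD7 are inhibitory SMADs whose genes are switched on by the same signals and which then shut the receptors down. ID proteins are helix-loop-helix proteins without a DNA-binding region. They bind E proteins and so keep them from forming the dimers that TAL1 and other blood cell factors need, and *Id1* is a standard readout of BMP signalling. In the blood lineage TGF-β holds stem cells quiescent and favours erythroid maturation, and ID2 takes part in the choice between myeloid, lymphoid and erythroid fates.

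*Id1* rose with dox from a level near the detection limit by 3.90 on the log2 scale, and *Smad5* rose by 0.66, while *Id2* fell by 1.95. *Smad6*, *Smad7* and *Smad1* had mean levels more than 2-fold higher with dox and did not pass the test, and for these genes dox-treated replicate 3 was the dox-treated library nearest to the untreated ones. *Smad3* had nearly equal means, with a log2 fold change of 0.02. In limma with Benjamini–Hochberg adjustment over all 12088 genes tested, 2 members were called higher and 1 was called lower at an adjusted p under 0.05, which is 3 of 9, or 33.3%. Over all genes tested the share called was 7.77%, 4.59% higher and 3.18% lower. At an unadjusted p under 0.05 the counts were 6 of 9 members and 29.2% of all genes. The median log2 fold change was 0.66 over the 9 members and -0.03 over all genes tested. The members were chosen with earlier results of these data known, and *Id1* and *Smad6* passed the filter only through the dox-treated libraries. These counts and the median describe the set and were not tested as a set.

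Promoter sequences of 3 members are shown because these genes differed between the groups without overlap and their promoters hold the letters of a known SMAD element. Each runs from 250 bases before the start site to 30 bases after it and is written 5′ to 3′ on the strand of the gene. The sequences are RefSeq promoters of GRCm38.p6, and the coordinates are those of their single exact match in NCBIM37. Capitals mark GTCTAGAC, the palindrome bound by SMAD proteins, or GGCGCC, a GC-rich element bound by BMP SMADs.
Smad6, chr9:63869837-63870116, minus strand: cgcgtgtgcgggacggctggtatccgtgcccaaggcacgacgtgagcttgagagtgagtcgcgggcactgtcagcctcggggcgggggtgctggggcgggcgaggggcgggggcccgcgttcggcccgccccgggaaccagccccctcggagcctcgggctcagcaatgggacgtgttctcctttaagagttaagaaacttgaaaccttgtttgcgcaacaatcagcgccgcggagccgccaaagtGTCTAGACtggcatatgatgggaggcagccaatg
Id2, chr12:25780928-25781207, minus strand: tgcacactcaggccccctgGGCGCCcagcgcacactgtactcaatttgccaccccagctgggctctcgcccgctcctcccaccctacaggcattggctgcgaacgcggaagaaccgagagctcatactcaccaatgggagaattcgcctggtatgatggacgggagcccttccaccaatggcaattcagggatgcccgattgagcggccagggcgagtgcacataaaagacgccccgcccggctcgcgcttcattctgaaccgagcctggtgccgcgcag
Smad5, start site 1, chr13:56804121-56804400, plus strand: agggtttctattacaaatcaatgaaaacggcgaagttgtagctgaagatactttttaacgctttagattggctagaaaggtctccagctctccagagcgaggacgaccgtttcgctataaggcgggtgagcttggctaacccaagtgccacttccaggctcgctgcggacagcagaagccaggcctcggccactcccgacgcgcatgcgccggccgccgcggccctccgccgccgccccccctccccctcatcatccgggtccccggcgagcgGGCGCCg
The RefSeq promoter table held 6 members, *Id2*, *Id3*, *Smad1*, *Smad3*, *Smad5* and *Smad6*, with 8 start sites in all. The GTCTAGAC palindrome was found in 1 of these 8 windows, that of *Smad6*, where its first base lies 4 bases before the start site. Among 32851 promoter windows of 300 bases, 0.21% held it. GGCGCC was found in 3 windows, in *Id2* with its first base 231 bases before the start site and in *Smad5* at start sites 1 and 2, whose overlapping windows hold the same occurrence. In *Smad5* its first base lies past start site 1, at base 24 counted from that start, and 19 bases before start site 2. The window of *Smad5* start site 3 did not hold it. This element is common, with 11.87% of all windows holding it. The short SMAD box CAGAC stood in 2 of the 8 windows, the E-box CANNTG, which E proteins bind, in 4 and the GATA motif AGATAA in 1, against 49.59%, 72.31% and 11.18% of all windows. Both strands were searched for these 5 motifs, none of which lies within another. None of them was found in the windows of *Smad1* and *Smad3*. A match says only that the letters are present, and no binding was measured.

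The libraries held between 11264803 and 16153600 reads on the listed genes. Values are given as reads or as CPM, counts scaled to 1000000 reads of the normalized library size, in which 1 read was worth 0.0642 to 0.091 CPM and the limit of 3 reads 0.193 to 0.273 CPM. These limits cover counting error only. *Nanog*, the gene that dox induces, had 17062, 19609 and 15959 reads in dox-treated replicates 1, 2 and 3 and 9, 13 and 1 without dox, a difference of 11.37 on the log2 scale (standard error, SE, 0.75, limma adjusted p = 0.00349), so every library matched its label. Dox-treated replicate 3 stood apart from its group. On the first principal component it lay at -14.8, dox-treated replicates 1 and 2 at -57.5 and -56.3, and the untreated replicates between 35.1 and 54.2. For members and named pathway genes, calls that turn on this library are given with and without it. All 14 erythroid markers were present in the table, among them *Gata1*, *Klf1* and *Epor*, with *Car2* the largest part of a summed level of 3488 to 5404 CPM in dox-treated and 5025 to 5650 CPM in untreated libraries. Limma called 0 of the 14 higher and 2 lower (*Ermap* and *Epb4.2*), and 0 higher and 7 lower without dox-treated replicate 3. Over all genes tested it called 4.59% higher and 3.18% lower, and 14.9% and 14.0% without that library. By mean log2 CPM, 6 of the 14 were higher with dox and 8 lower. Among the 6, *Hbb-b1* had 61.6 ± 30.5 CPM with dox and 23.98 ± 4.22 CPM without, with overlapping groups (limma adjusted p = 0.143).

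Of the receptor SMADs of the BMP arm, *Smad5* (ENSMUSG00000021540, chr13:56804371-56843738, plus strand, NCBIM37) rose. Its reads numbered 1086, 1024 and 1126 with dox and 683, 570 and 546 without, or 79.96, 76.23 and 72.26 CPM against 53.11, 42.12 and 49.67 CPM. All 3 dox-treated libraries lay above all 3 untreated ones, and dox-treated replicate 3 lay with its group. The means were 76.15 ± 3.854 CPM with dox and 48.3 ± 5.621 CPM without (SD, n = 3 each), 1.58-fold higher (95% interval 1.28 to 1.96, log2 fold change 0.66, SE 0.13, limma adjusted p = 0.0366). The adjusted p rose to between 0.077 and 0.137 when any library but dox-treated replicate 3 was left out, with log2 fold changes of 0.57 to 0.73, so the direction held in all of these fits and the call did not.

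*Smad1* (ENSMUSG00000031681, chr8:81862294-81923417, minus strand) encodes the other BMP receptor SMAD with values here. It had 168, 195 and 79 reads with dox and 70, 39 and 49 reads without, or 12.37, 14.52 and 5.069 CPM against 5.443, 2.882 and 4.458 CPM. Dox-treated replicates 1 and 2 were high, dox-treated replicate 3 lay below untreated replicate 1, and the groups overlapped. The means of 10.65 ± 4.952 and 4.261 ± 1.292 CPM gave a log2 fold change of 1.23 with a standard error of 0.45, which did not pass (limma adjusted p = 0.14). Without dox-treated replicate 3 the log2 fold change was 1.69 (limma adjusted p = 0.0214), against a range of 0.0069 to 0.35 over all alternatives.

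Neither receptor SMAD of the TGF-β and activin arm passed the test. *Smad2* (ENSMUSG00000024563, chromosome 18) had 538, 496 and 700 reads with dox and 644, 648 and 516 reads without, which after scaling were 39.61, 36.92 and 44.92 CPM against 50.08, 47.89 and 46.94 CPM. The dox-treated libraries all lay below the untreated ones, by a margin of about 2 CPM between the nearest libraries, and the means were 40.49 ± 4.068 and 48.3 ± 1.608 CPM. This difference did not pass the test (log2 fold change -0.26, standard error 0.11, 95% interval -0.54 to 0.02, limma adjusted p = 0.195), and without dox-treated replicate 3 it was -0.34 with an adjusted p of 0.0461, in a range of 0.023 to 0.47 over all alternatives. *Smad3* (ENSMUSG00000032402, chr9:63494574-63605801, minus strand) had 653, 549 and 616 reads with dox and 516, 533 and 523 reads without. Its means of 42.83 ± 4.599 and 42.36 ± 4.532 CPM came from overlapping libraries, and the log2 fold change of 0.02 (95% interval -0.31 to 0.34, limma adjusted p = 0.948) turned negative when dox-treated replicate 1, untreated replicate 1 or untreated replicate 2 was left out, the lowest value being -0.07.

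*Smad4* (ENSMUSG00000024515, chromosome 18), the partner that all receptor SMADs share, had 555, 486 and 387 reads with dox and 329, 322 and 308 reads without. In CPM these were 40.86, 36.18 and 24.83 against 25.58, 23.79 and 28.02. Dox-treated replicates 1 and 2 lay above every untreated library and dox-treated replicate 3 lay among them. The means were 33.96 ± 8.243 and 25.8 ± 2.121 CPM, a log2 fold change of 0.37 with a standard error of 0.21 (limma adjusted p = 0.282). It was 0.58 without dox-treated replicate 3, with an adjusted p of 0.0272 in limma and a range of 0.019 to 0.6 over all alternatives.

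Both inhibitory SMADs were higher in every dox-treated library than in any untreated one, and neither passed the test with all 6 libraries. *Smad7* (ENSMUSG00000025880, chromosome 18), which blocks TGF-β and BMP receptors alike, had 430, 414 and 207 reads with dox and 129, 134 and 142 reads without. In CPM it stood at 31.66, 30.82 and 13.28 with dox against 10.03, 9.902 and 12.92 without, so dox-treated replicate 3 exceeded the highest untreated library only narrowly. The means of 25.25 ± 10.38 and 10.95 ± 1.705 CPM gave a log2 fold change of 1.11 with a standard error of 0.36 (limma adjusted p = 0.111). Without dox-treated replicate 3 the value was 1.52 (limma adjusted p = 0.00758, range over all alternatives 0.0043 to 0.3). *Smad6* (ENSMUSG00000036867, chr9:63800953-63869866, minus strand), which acts mainly on BMP signals and whose promoter with the palindrome is printed above, was the lowest SMAD gene per length. It had 27, 21 and 17 reads with dox and 11, 9 and 6 reads without, 65 against 26 reads in all. The ratio of pooled reads per library size was 2.19, with an exact 95% interval of 1.37 to 3.6 for counting error alone. In CPM the means were 1.547 ± 0.4488 and 0.6888 ± 0.1561, and the log2 fold change of 1.10 (standard error 0.26) had an adjusted p of 0.0598 in limma, which fell to 0.0197 without dox-treated replicate 3, with a range of 0.0058 to 0.23 over all alternatives.

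**Figure D1:**
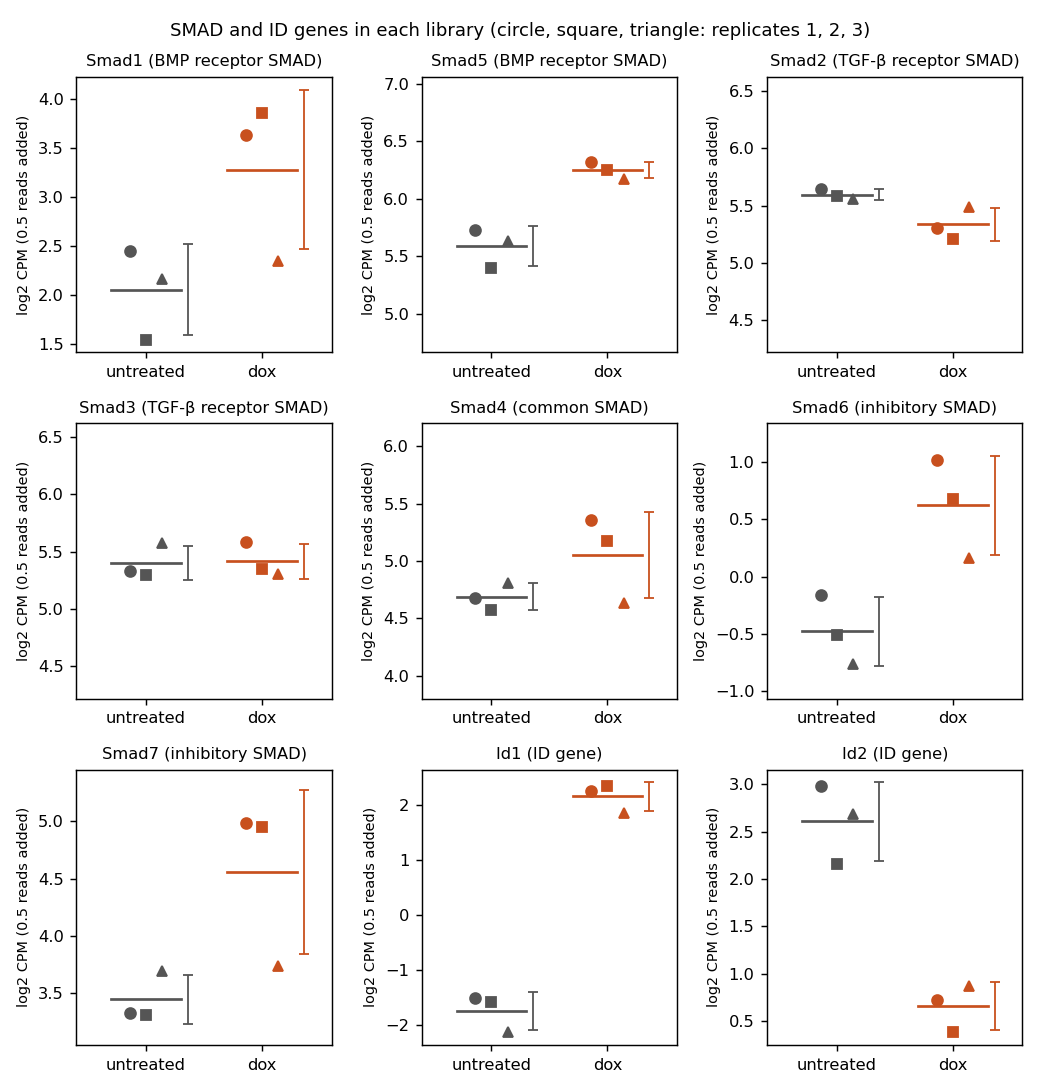
Level of each of the 9 SMAD and ID genes in each library, as log2 CPM with 0.5 reads added (vertical axes, each with its own range), untreated in grey and dox-treated in orange; horizontal lines are group means and bars ± 1 SD (n = 3). The *Id1* and *Id2* groups are well apart in opposite directions, and for *Smad1*, *Smad4* and *Smad7* the triangle of dox-treated replicate 3 lies near the untreated libraries.

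*Id1* (ENSMUSG00000042745, chr2:152561987-152563146, plus strand) had 64, 68 and 56 reads with dox and 4, 4 and 2 without, or 4.712, 5.062 and 3.594 CPM against 0.311, 0.2956 and 0.1819 CPM. The untreated libraries lay at about the limit of 3 reads, and each dox-treated library, replicate 3 included, lay more than 10-fold above the highest of them. The means were 4.456 ± 0.7671 and 0.2629 ± 0.0705 CPM. The fitted log2 fold change was 3.90 (SE 0.22, limma adjusted p = 0.00263), 14.9-fold with a 95% interval of 10.3 to 21.7. Because few untreated reads lie behind it, the fitted fold depends on the reads added before the log, and the ratio of pooled reads, 188 with dox and 10 without, was 16.5 per library size, with an exact 95% interval of 8.78 to 35.0 for counting error alone. The call held in 15 of 15 alternatives, with adjusted p from 0.00042 to 0.016 in limma.

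*Id2* (ENSMUSG00000020644, chr12:25778666-25780957, minus strand), whose promoter is printed above, moved in the opposite direction. It had 22, 17 and 28 reads with dox and 101, 60 and 70 reads without, or 1.62, 1.266 and 1.797 CPM against 7.854, 4.434 and 6.368 CPM. The highest dox-treated library lay far below the lowest untreated one. From means of 1.561 ± 0.2705 and 6.219 ± 1.715 CPM it fell by 1.95 on the log2 scale (SE 0.25, limma adjusted p = 0.0153), to 0.259 of the untreated level with a 95% interval of 0.171 to 0.394. The call held in 12 of 15 alternatives and was lost without dox-treated replicate 1, dox-treated replicate 2 or untreated replicate 3, with adjusted p of 0.0589, 0.0565 and 0.0668 in limma and log2 fold changes of -1.98, -1.81 and -1.91. In these bulk libraries fewer cells that express a gene and less of its RNA per cell cannot be told apart.

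Counted by groups, 6 of the 9 members had no overlap between the groups, 4 of them higher with dox (*Smad5*, *Smad6*, *Smad7* and *Id1*) and 2 lower (*Smad2* and *Id2*). For *Id1* and *Smad6* the filter itself required high dox-treated libraries. Among all genes tested 35.9% had no overlap, 17.7% higher and 18.2% lower. For such a gene the two-sided exact permutation test of 3 libraries against 3 gives p = 0.1, the smallest p it can give. Without dox-treated replicate 3, limma called 6 members higher and 2 lower, all but *Smad3*, while it called 28.9% of all genes, 14.9% higher and 14.0% lower.

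**Figure D2:**
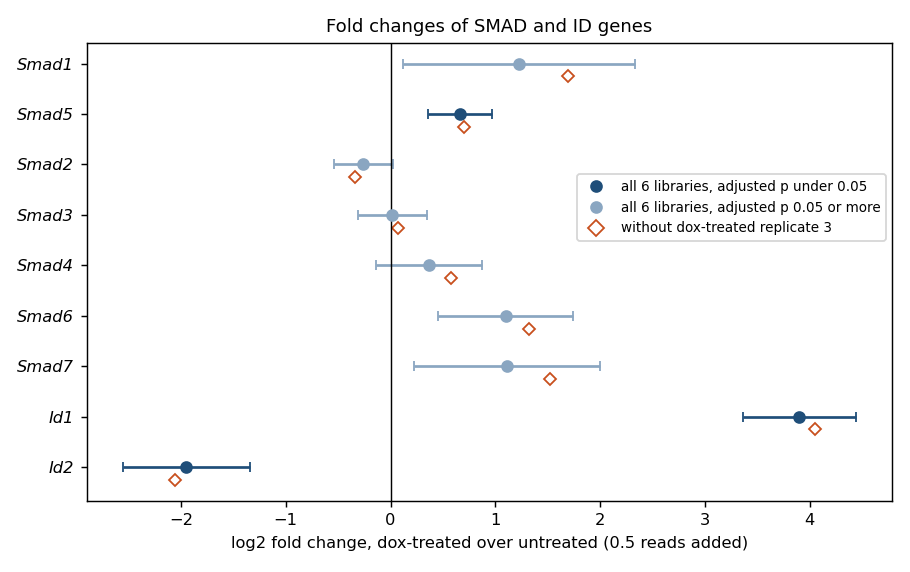
Log2 fold change of each SMAD and ID gene, dox-treated over untreated, with 0.5 reads added before the log (horizontal axis); circles are limma estimates from all 6 libraries with 95% intervals, dark where the adjusted p was under 0.05, and open diamonds are estimates without dox-treated replicate 3. The diamonds lie farther from 0 than the circles for all 9 genes, and the intervals of *Id1*, *Id2*, *Smad5*, *Smad6*, *Smad7* and *Smad1* exclude 0 before adjustment.

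Levels of different genes were compared per length, as CPM per kilobase of merged exons. In untreated MEPs the order was *Smad2* (13.6 ± 0.453), *Smad3* (7.64 ± 0.818), *Smad4* (6.95 ± 0.571), *Smad5* (6.51 ± 0.758), *Id2* (4.9 ± 1.35), *Smad7* (2.42 ± 0.377), *Smad1* (0.733 ± 0.222), *Id1* (0.227 ± 0.0608) and *Smad6* (0.22 ± 0.0498), each as mean ± SD of 3 libraries. *Smad2* stood above all others in every untreated library. The ranges of *Smad3*, *Smad4* and *Smad5* overlapped between neighbours, as did those of *Smad5* and *Id2* and of *Id1* and *Smad6*. Compared within each untreated library, *Smad3* was above *Smad4* and *Smad5* above *Id2* in all 3, while *Smad4* and *Smad5*, and *Id1* and *Smad6*, changed places between libraries. In dox-treated MEPs *Smad2* (11.4 ± 1.15), *Smad5* (10.3 ± 0.519), *Smad4* (9.15 ± 2.22) and *Smad3* (7.73 ± 0.83) formed the upper group, with overlapping ranges between each neighbouring pair, although within each library *Smad2* was above *Smad5*. *Smad7* (5.59 ± 2.3) and *Id1* (3.84 ± 0.661) followed, also overlapping, then *Smad1* (1.83 ± 0.852) and *Id2* (1.23 ± 0.213), overlapping too, and *Smad6* (0.493 ± 0.143) was lowest in each dox-treated library. *Id1*, level with *Smad6* in untreated MEPs, was above *Id2* in every dox-treated library. With the longest transcript as the length, *Smad1* stood at 2.82 ± 1.31 with dox and 1.13 ± 0.342 without, its dox-treated range then overlapped that of *Id1*, and untreated *Smad6* (0.237 ± 0.0538) and *Id1* (0.227 ± 0.0608) changed places. The ranges of dox-treated *Smad2* and *Smad5*, and of untreated *Smad5* and *Id2*, no longer overlapped with that length.

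The balance within each pair of arms was described from the same per-length levels. These shares were chosen after the values had been seen and were given no test. *Smad1* and *Smad5* together made up 39.4%, 41.8% and 34.9% of the receptor SMAD level with dox and 27.5%, 23.1% and 25.5% without. Dox-treated replicate 3 was the lowest of its group and still above every untreated library. The mean share was 38.7 ± 3.5% with dox and 25.3 ± 2.22% without, a difference of 13.4 percentage points, or 13.8 points with the longest transcript as the length. Most of this level came from *Smad5*, which per length was several times more abundant than *Smad1* in every library. *Id1* made up 76.1%, 81.4% and 68.6% of the summed *Id1* and *Id2* level with dox, and 4.16%, 6.8% and 3.03% without. The exact binomial 95% intervals, for counting error alone, ran from 57.8% to 88.8% over the dox-treated and from 0.37% to 16.4% over the untreated libraries, so the more abundant ID gene of the pair was *Id1* with dox and *Id2* without.

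**Figure D3:**
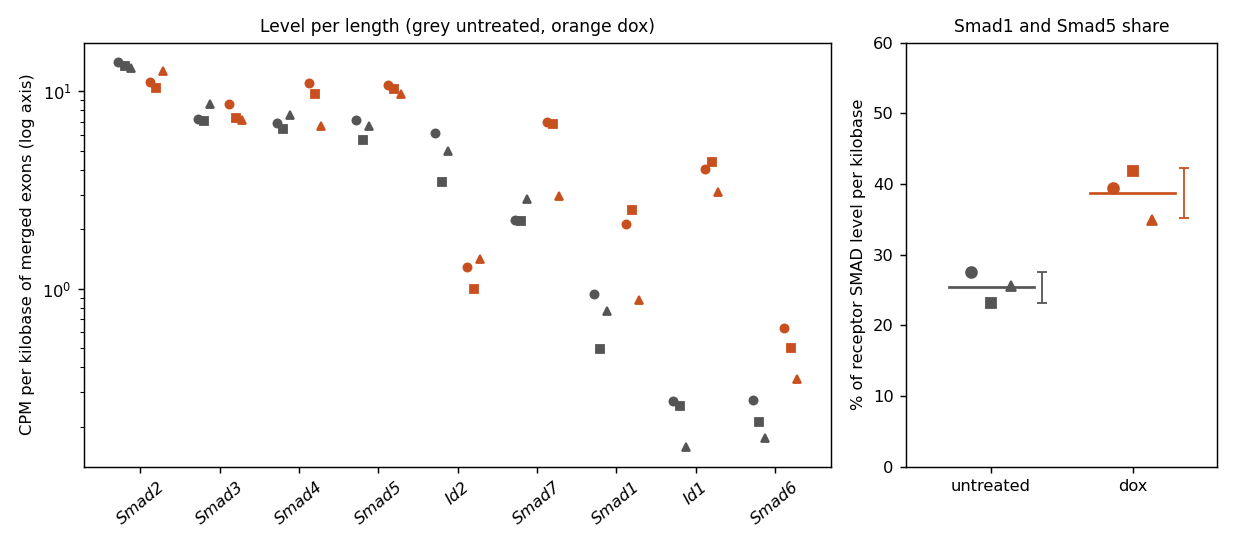
Left, CPM per kilobase of merged exons for each gene and library on a log axis, genes ordered by untreated mean, grey untreated and orange dox-treated (circle, square and triangle are replicates 1, 2 and 3). Right, the percentage of the summed level of *Smad1*, *Smad2*, *Smad3* and *Smad5* that came from *Smad1* and *Smad5*, with means and ± 1 SD (n = 3), which was 38.7% with dox and 25.3% without.

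The other genes of the pathway were taken from lists of ligands, receptors, inhibitors, SMAD adaptors, nuclear partners, target genes and ID partners. Of 115 listed genes, 62 had values and were tested. Limma called 1 of the 62 higher and 4 lower, 8.06%, close to the 7.77% of all genes, and 19 had an unadjusted p under 0.05. The corresponding unadjusted share of all genes was 29.2%. Without dox-treated replicate 3 limma called 12 of the 62 higher and 10 lower, beside 14.9% and 14.0% of all genes in that fit. The 5 calls with all 6 libraries were lost when any other library was left out, except that of *Bmp1*, which passed without dox-treated replicate 1. The median log2 fold change of the 62 genes was 0.07.

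Of 22 listed ligands 4 had values. *Tgfb1*, encoding TGF-β1, had a mean level of 214.2 ± 33.64 CPM with dox and 195.0 ± 25.98 CPM without (log2 fold change 0.13, limma adjusted p = 0.621), and *Bmp2*, *Bmp4*, *Bmp5*, *Bmp6* and *Bmp7* were not among the genes with values. *Bmp1*, which despite its name encodes a procollagen-cutting protease, fell from 20.86 ± 1.388 to 6.786 ± 1.781 CPM (log2 fold change -1.65, SE 0.20, limma adjusted p = 0.0143). Its reads were 71, 86 and 136 with dox against 251, 281 and 245 without. *Gdf3*, a ligand also known from pluripotent cells, had 24.85 ± 3.569 CPM with dox and 40.39 ± 7.2 CPM without (log2 fold change -0.69, limma adjusted p = 0.0725), and *Lefty1*, an inhibitor of NODAL, had 10.18 ± 1.519 and 11.48 ± 1.227 CPM. For *Gdf3* the adjusted p without dox-treated replicate 3 was 0.034 in limma, with a range of 0.014 to 0.22 over all alternatives.

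Of 18 receptors and coreceptors 8 had values, 6 of which encode activin or TGF-β receptors. *Acvr2a*, a type II activin receptor, was the only one that passed and rose from 3.403 ± 0.3702 to 12.16 ± 5.217 CPM (log2 fold change 1.72, SE 0.36, limma adjusted p = 0.045). Its reads were 183, 223 and 100 with dox and 48, 47 and 33 without, and 446 bases of its exons are shared with *Orc4* on the opposite strand, whose reads cannot be told apart if counting ignored strand. *Acvr1b*, the type I activin receptor, had 330, 311 and 189 reads with dox and 88, 32 and 73 without (log2 fold change 1.99, limma adjusted p = 0.0657). *Tgfbr2*, the type II TGF-β receptor, had 39.85 ± 10.29 against 16.61 ± 4.729 CPM (log2 fold change 1.27, limma adjusted p = 0.0593). These 3 receptor genes did not overlap between the groups, dox-treated replicate 3 was the lowest of its group for each, and without it *Acvr2a*, *Acvr1b* and *Tgfbr2* had adjusted p of 0.00494, 0.0343 and 0.024 in limma, against ranges over all alternatives of 0.0019 to 0.14, 0.0069 to 0.2 and 0.0052 to 0.19. *Eng*, the coreceptor endoglin, had 132.5 ± 6.067 CPM with dox and 175.0 ± 17.6 CPM without (limma adjusted p = 0.0912). The groups overlapped for the other 4 receptors, 3 of them activin or TGF-β receptors, with limma adjusted p between 0.226 and 0.805. The type I BMP receptor genes *Bmpr1a*, *Bmpr1b* and *Acvr1* were not among the genes with values.

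Limma called 0 of 6 extracellular and membrane inhibitors, with 1 at an unadjusted p under 0.05. That gene was *Bambi*, a decoy receptor that BMP signals induce in many cells, at 4.949 ± 2.262 CPM with dox and 2.239 ± 0.4176 CPM without. Its reads numbered 96, 70 and 40 with dox and 35, 27 and 22 without, and in CPM dox-treated replicate 3 (2.567) lay below untreated replicate 1 (2.722), so the groups overlapped. The log2 fold change of 1.03 (limma adjusted p = 0.142) was 1.44 without dox-treated replicate 3, where the adjusted p was 0.0168 in limma, within a range of 0.0075 to 0.34 over all alternatives. *Twsg1*, *Ltbp1* and *Ltbp3*, whose products hold BMPs or latent TGF-β outside the cell, overlapped between the groups with log2 fold changes of -0.20, -0.43 and 0.99.

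Of the 14 SMAD adaptors, ubiquitin ligases and phosphatases, limma called 0, with 2 at an unadjusted p under 0.05. *Nedd4l*, a ubiquitin ligase for activated SMAD2 and SMAD3, had 408, 572 and 290 reads with dox and 174, 136 and 140 without (log2 fold change 1.26, limma adjusted p = 0.0668). *Smurf1*, a ligase that removes BMP SMADs, had 11.79 ± 3.499 against 6.886 ± 1.758 CPM (log2 fold change 0.75, limma adjusted p = 0.156). With dox-treated replicate 3 left out, *Nedd4l* and *Smurf1* had adjusted p of 0.0146 and 0.0309 in limma, against ranges over all alternatives of 0.0056 to 0.19 and 0.018 to 0.38. *Rnf111*, a ligase that removes SMAD7 and the SKI proteins, and *Strap*, an adaptor of SMAD7, had log2 fold changes of 0.48 and -0.29 with overlapping groups. Without dox-treated replicate 3 the values were 0.77 and -0.43, with adjusted p of 0.0139 and 0.0397 in limma and ranges over all alternatives of 0.0073 to 0.55 and 0.023 to 0.58.

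Nuclear partners of the SMADs held 2 of the 5 calls. *Runx3*, a transcription factor that joins receptor SMADs, fell from 69.65 ± 5.317 to 45.97 ± 2.578 CPM (log2 fold change -0.60, SE 0.11, limma adjusted p = 0.035), and *E2f4*, a cell cycle factor in the SMAD3 complex that represses *Myc*, fell from 335.4 ± 52.03 to 205.2 ± 17.78 CPM (log2 fold change -0.70, SE 0.15, limma adjusted p = 0.0471). *Skil*, encoding the SMAD corepressor SnoN and itself a TGF-β target, had 302, 306 and 262 reads with dox against 187, 160 and 123 without (log2 fold change 0.71, limma adjusted p = 0.0616). The adjusted p of *Skil* without dox-treated replicate 3 was 0.0198 in limma, with a range of 0.005 to 0.2 over all alternatives. *Tgif2*, another corepressor that shares 1100 bases, or 34.99%, of its exons with a lincRNA on the opposite strand, had 24.77 ± 2.084 against 32.31 ± 2.468 CPM (limma adjusted p = 0.0969). The remaining 9 of these 13 genes did not pass with all 6 libraries. Over the 13 genes limma called 3 higher and 2 lower without dox-treated replicate 3, beside 14.9% and 14.0% of all genes.

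SMAD target genes other than the members did not share a direction. Of 10 with values, 3 had a higher and 7 a lower mean log2 CPM with dox, and 1 passed. This was *Gadd45b*, a stress response gene, which fell from 3.791 ± 0.6772 to 1.852 ± 0.4355 CPM (31, 25 and 22 reads against 49, 42 and 49, log2 fold change -1.03, limma adjusted p = 0.048). *Gata2*, a BMP target in blood progenitors, had 3883, 3169 and 2116 reads with dox and 1027, 701 and 1179 without (log2 fold change 1.46, limma adjusted p = 0.0698). *Tsc22d1*, a TGF-β-induced gene, and *Ccne1*, the G1 cyclin E1, had log2 fold changes of -0.64 and -0.85 with adjusted p of 0.087 and 0.0762 in limma. *Gata2*, *Tsc22d1* and *Ccne1* did not overlap between the groups, and without dox-treated replicate 3 their adjusted p were 0.0246, 0.0178 and 0.0284 in limma, against ranges over all alternatives of 0.0074 to 0.21, 0.0063 to 0.25 and 0.007 to 0.23.

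The E proteins and other helix-loop-helix genes that ID proteins meet in the cell were tested in 7 cases, with 0 called by limma and 2 at an unadjusted p under 0.05. *Tcf3*, encoding the E proteins E12 and E47, had 314.6 ± 14.74 CPM with dox and 413.4 ± 27.56 CPM without (log2 fold change -0.39, limma adjusted p = 0.0755). *Tcf4*, encoding E2-2, had 78.16 ± 3.661 against 52.34 ± 7.18 CPM (log2 fold change 0.59, limma adjusted p = 0.0551). Neither gene overlapped between the groups, and dox-treated replicate 3 lay with its group in both. Without that library *Tcf3* and *Tcf4* had adjusted p of 0.0419 and 0.0358 in limma, against ranges over all alternatives of 0.014 to 0.25 and 0.0097 to 0.19. *Mxd4*, a MAX partner, had a log2 fold change of 0.52 (limma adjusted p = 0.195), and *Hes1*, a Notch target with 13, 15 and 2 reads against 16, 40 and 17, was near the limit of 3 reads in dox-treated replicate 3.

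**Figure D4:**
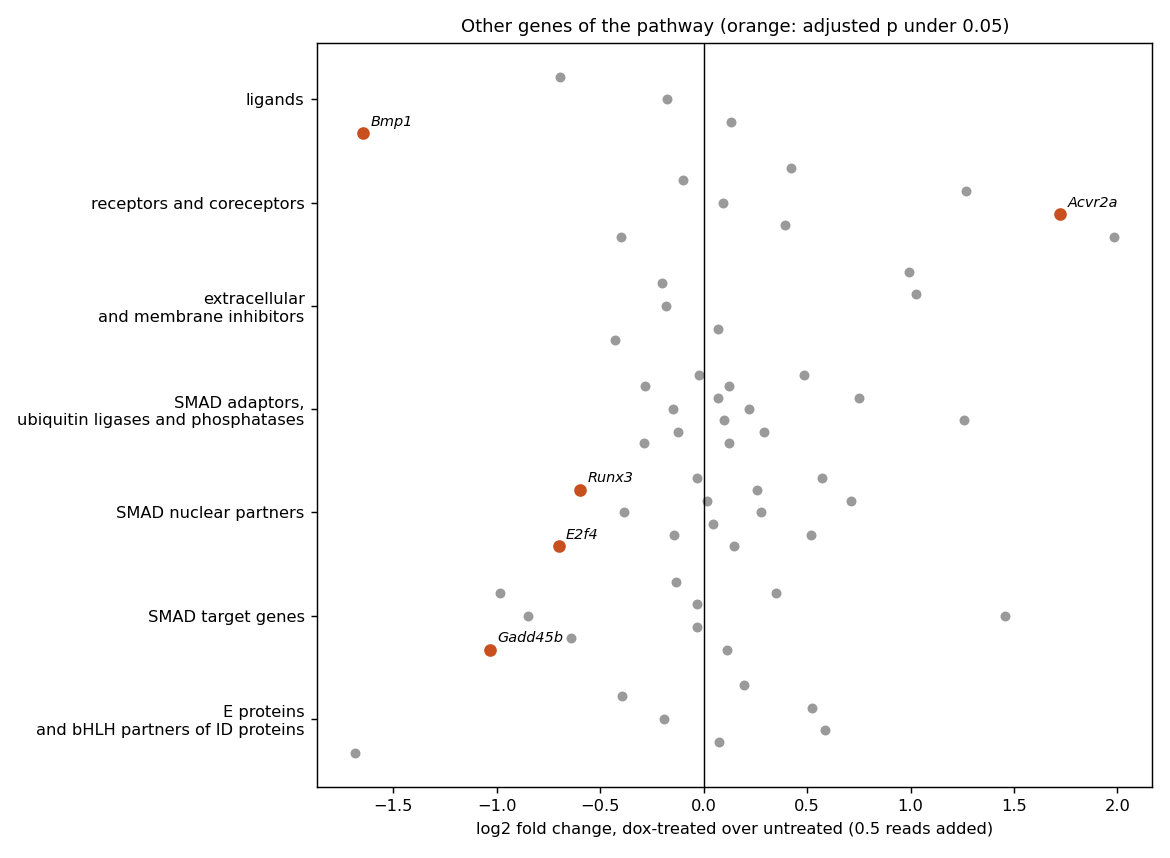
Log2 fold change, dox-treated over untreated with 0.5 reads added (horizontal axis), of the 62 other pathway genes tested, grouped by role; vertical position within a group only separates the points. Orange points are the 5 genes with an adjusted p under 0.05 in limma, 1 higher (*Acvr2a*) and 4 lower (*Bmp1*, *Runx3*, *E2f4* and *Gadd45b*).

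For the 3 members with the largest log2 fold change in size, the genes with the most similar pattern were sought by the root mean square difference of centred log2 values over the 6 libraries, among the 9993 genes whose mean reached 5 CPM. Nearest to *Id1* were *Ephx2* (0.295), *Muc6* (0.346) and *Usp2* (0.353), with log2 fold changes of 3.44, 3.45 and 4.11. *Id2* lay nearest to *Nkg7* (0.169), *Trim2* (0.194) and *Alas1* (0.209), with log2 fold changes of -2.12, -2.27 and -1.66. *Smad1* lay nearest to *Tbxas1* (0.0361), whose reads of 245, 271 and 116 with dox and 96, 56 and 71 without follow those of *Smad1* library by library, then to *Dst* (0.125) and *Abr* (0.126). These distances describe 6 libraries that share depth and group, and no test was made of them.

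Markers of other cell types moved in the same libraries. MEPs were sorted with a lineage cocktail and antibodies to cKit, Sca1, CD34 and CD16/32, and such a gate is meant to leave out mature blood cells, stem cells and granulocyte-monocyte progenitors. Of 12 granulocyte-monocyte markers 11 had values, 7 were called lower by limma and 0 higher, and all 11 had an unadjusted p under 0.05. These counts became 8 lower and 1 higher without dox-treated replicate 3. For this and the next marker lists, the shares over all genes tested were 7.77% called and 29.2% at an unadjusted p under 0.05. Without dox-treated replicate 3 limma called 28.9% of all genes. The summed level of the granulocyte-monocyte markers was 555.7 to 911.5 CPM with dox and 2291 to 5270 CPM without, and none of them was at 0 reads in any library. The exception in direction was *Cd34*, named like the other markers here after its values were seen, at 121.2 ± 54.91 CPM with dox and 43.18 ± 17.45 CPM without (limma adjusted p = 0.114). *Id2* fell in the same libraries as the summed level. Within the untreated group *Id2* had the same order of libraries as the sum, and within the dox-treated group it did not, being highest in replicate 3, where the sum was lowest. Lymphoid markers, 7 of 10 with values, summed to 18.83 to 35.12 CPM with dox and 42.93 to 63.22 CPM without, with *Rag1* at 0 reads in a library and *Pax5*, *Cd3e* and *Cd3g* without values. *Nkg7* carried the lower sum, at 8.537 ± 1.025 CPM with dox and 38.8 ± 13.36 CPM without, and was the only one called, while all the others overlapped between the groups and *Il7r*, *Cd79a*, *Cd79b* and *Rag1* had higher mean CPM with dox. Megakaryocyte markers, 10 of 12 with values, summed to 593.0, 590.7 and 250.7 CPM with dox and to 163.5 to 215.2 CPM without, with 2 called higher and 1 lower and none at 0 reads. *Itga2b* was the largest part of this sum with dox, at 233.3 ± 144.2 CPM against 33.59 ± 8.275 CPM, and *Vwf*, *Gp1bb* and *Pf4* had lower means with dox. As a sum, dox-treated replicate 3 lay between its group and the untreated group, as it did for *Smad7*, whereas by the mean log2 CPM of the list it lay at 3.659, below untreated replicates 1 and 3 at 3.814 and 3.734. Without dox-treated replicate 3 limma called 5 of these markers higher and 2 lower. Stem and multipotent progenitor markers, 7 of 9 with values, summed to 151.1, 151.5 and 86.57 CPM with dox and 40.64 to 81.49 CPM without, with 0 called by limma and 3 at an unadjusted p under 0.05, and with 3 called higher and 0 lower when dox-treated replicate 3 was left out. Mast cell and basophil markers, 6 of 11 with values, summed to 497.8 to 502.7 CPM with dox and 422.0 to 586.8 CPM without. *Kit* made up most of this sum, at 315.6 ± 9.813 and 418.7 ± 81.84 CPM, while the 2 markers called higher by limma, *Cpa3* and *Ms4a2*, stood at 52.58 ± 7.554 and 20.35 ± 8.451 CPM with dox against 7.113 ± 2.628 and 2.985 ± 1.149 CPM without. *Gzmb* had 0.4198 ± 0.4759 CPM with dox and 3.263 ± 0.5596 CPM without (log2 fold change -3.42, limma adjusted p = 0.0525), and of the 6 markers 3 had higher and 3 lower means. The part of these cell types in the differences of the SMAD and ID genes was not tested.

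**Figure D5:**
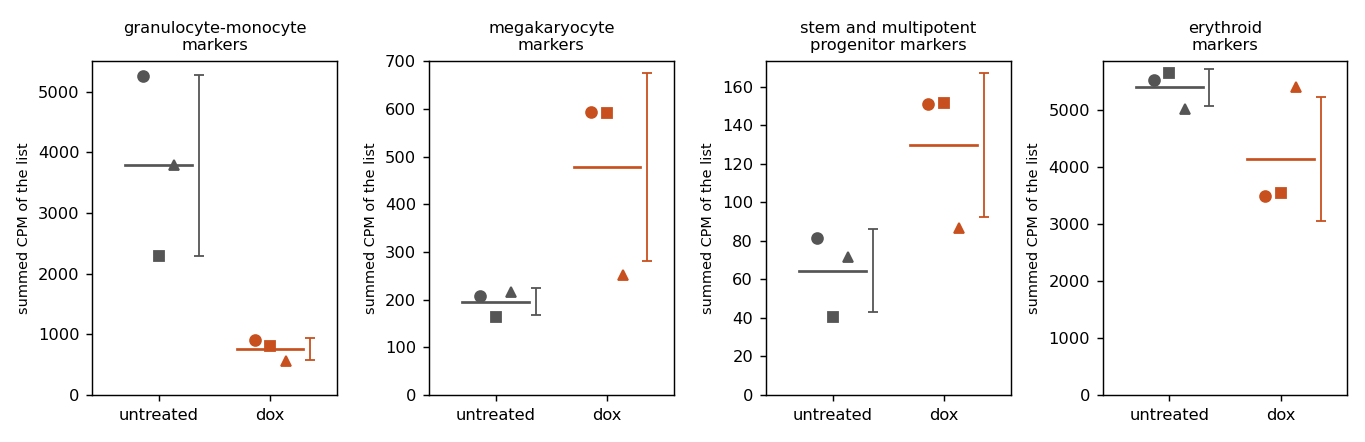
Summed CPM of 4 marker lists in each library (vertical axes from 0), untreated in grey and dox-treated in orange, with group means and ± 1 SD (n = 3). Granulocyte-monocyte markers were lower in all 3 dox-treated libraries, and for the megakaryocyte, stem and erythroid lists the triangle of dox-treated replicate 3 lay apart from the other dox-treated libraries.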

How the data were processed

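RNA-seq of sorted MEPs gave 6 libraries, 3 dox-treated and 3 untreated, grouped by their labels. Per the paper's methods, Cutadapt trimmed the adapters, RSEM assigned reads to Ensembl transcripts of NCBIM37, and limma was used for normalization. The authors deposited log2 CPM values with 0.5 reads added, for 12101 genes. How library sizes were normalized, how low genes were removed and whether counting used strand are not given in the sources used here. Taking each library's lowest value as 0.5 reads turned 100% of values into whole reads, within 6.6e-09 reads.

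The deposited log2 values were tested with limma (version 3.58.1, R 4.3.3), lmFit and eBayes without a block, on the 12088 genes that reached 1 CPM in 3 or more libraries. P-values were adjusted by Benjamini–Hochberg, with a threshold of 0.05. Fitted fold changes include the 0.5 reads added, which understates changes of genes with few reads. Ratios of pooled reads do not include them. A table of Ensembl gene names gave a symbol for 12067 of the genes. Exon lengths and positions came from a GENCODE annotation of NCBIM37 that is older than the Ensembl release the authors used. No other annotated gene overlapped a member. The *Id1* share and the pooled ratios have exact binomial 95% intervals, and the *Smad1* and *Smad5* share has only an SD over the libraries of a group.

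Named genes are all members, *Nanog*, up to 4 genes of each pathway list with the smallest p, any pathway gene past the threshold, and the 3 genes nearest in pattern to each of 3 members. Markers were named after their values were seen. Members and lists were chosen with earlier results of these data known. Python 3.11.15 with scipy 1.17.1, pandas 2.3.3, matplotlib 3.10.9 and numpy 2.4.6 was used for tables and plots. The fit was tested on 5 simulated sets with the same spread for all genes and no library set apart, unlike dox-treated replicate 3 here. It called 100.0% of the 4-fold changes put in and 75.8% of the smaller ones, and 6.86% of its calls were false. Alternatives changed the reads added, the filter, variance model, weights, scaling and block, and left out each library in turn. A longest-transcript length for the *Smad1* and *Smad5* share was added after seeing the data.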

Additional observations from a re-analysis of the deposited data

How the results depend on the processing

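Fold changes of the SMAD and ID genes kept their direction and side of the threshold in 119 of 141 values over all alternatives. In 9 a call was lost, in 10 a call was gained and in 3 the sign turned, all of *Smad3*, whose log2 fold change ranged from -0.07 to 0.10 when libraries were left out (-0.071 without dox-treated replicate 1, -0.021 without untreated replicate 1 and -0.034 without untreated replicate 2). Named pathway genes kept direction and side in 342 of 445 values, and none turned. Leaving out single libraries gave 1 to 6 members higher and 0 to 2 lower, 0 to 12 pathway genes higher and 0 to 10 lower, and 92 to 1801 of all genes higher and 36 to 1687 lower, the highest counts without dox-treated replicate 3, which had a quality weight of 0.163 against 0.561 to 2.66 for the others. Against 2 members higher and 1 lower, 1 and 4 pathway genes, and 555 and 384 of all genes, array quality weights gave 6 and 2, 15 and 13, and 2515 and 2601. A mean-variance trend gave 7 and 8 pathway genes and 909 and 747 of all genes. A filter of 5 CPM, under which *Id1*, *Id2* and *Smad6* were not tested, gave 1 and 0 members, 7 and 4 pathway genes, and 683 and 462 of 9979 genes. Voom precision weights gave 4 and 6 pathway genes and 615 and 570 of all genes, and quantile normalization 4 and 4, and 648 and 537. Scaling to the total of the listed genes gave 0 and 1 pathway genes and 631 and 286 of all genes, shifted the median of all genes by 0.11 on the log2 scale and left 68.8% of calls higher, against 59.1%. That share was 73.3% without untreated replicate 3.

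Replicates carry the numbers 1 to 3 in both groups, but same-numbered libraries did not deviate together (correlations of 0.0184, -0.121 and -0.299), and no dox-treated library correlated best with its own number. A fit with the replicate block gave 1 member higher and 1 lower, 0 pathway genes in either direction, and 53 of all genes higher and 29 lower in limma. Under it *Id1* and *Id2* passed (adjusted p = 0.00953 and 0.045, limma) and *Smad5* did not (0.133). The block with voom precision weights gave 5 and 4 pathway genes and 575 and 351 of all genes. With 3 libraries a group, and 10 untreated reads for *Id1* and 26 for *Smad6*, depth limits the fold of these low genes.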
